A study of Homo sapiens with 3 samples.

Results

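The liver-enriched transcription factors examined here are 8 genes: FOXA1, FOXA2 and FOXA3, CEBPA, CEBPB and CEBPD, ONECUT1, and PROX1. They were selected by name, through the Ensembl identifiers of the deposited table, and all 8 of 8 were found among 19862 genes. Levels are in FPKM, the fragments of a gene scaled to its transcript length and to the sequencing depth. All 8 passed the filter on low values, a mean over the libraries of 1 FPKM or more, as did 10974 genes in all. RNA was sequenced from Hep3B cells, a human hepatocellular carcinoma line, in 3 libraries with 1 library in each group, and every culture had been exposed to the transfection reagent Fugene HD. The first library came from cells given pcDNA3.1-HKR3, a plasmid for overexpression of HKR3 (ZBTB48), a telomere-binding zinc finger protein. The second, labelled siTERT, came from cells given a small interfering RNA against TERT, the catalytic subunit of telomerase. The control carries the title NT-Empty and the treatment label Fugene treatment, and the labels do not say what nucleic acid, if any, it received.

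FOXA proteins carry a forkhead DNA-binding domain and are pioneer factors, able to bind sites in compact chromatin and to prepare liver enhancers for other factors during development. C/EBP proteins are basic leucine zipper factors that bind DNA as dimers: C/EBP alpha sustains the differentiated, slowly dividing hepatocyte, while C/EBP beta and C/EBP delta are known as inducible members of the acute-phase and stress response. ONECUT1, also called HNF6, joins a cut domain to a homeodomain and acts in hepatocyte and bile duct differentiation. PROX1 is a homeodomain protein needed for hepatoblast migration and for lymphatic identity, and in liver cells it acts as a corepressor of nuclear receptors such as NR5A2 and HNF4A.

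The promoters of 4 of these genes are shown because their levels went in different directions while 3 of them share a core element at nearly the same place. RefSeq windows of 300 bases, from 250 before to 50 after an annotated transcription start on GRCh38.p14, matched 5 of the 8 genes, with 6 windows in all since CEBPB has a pair of starts whose windows share 53 bases. FOXA2, CEBPD and PROX1 were not among them. Capitals mark TATAAA, the TATA box, in the first 3 sequences, and the forkhead-type site TGTTTNC in FOXA1, which lies there as its reverse complement. All are written 5′ to 3′ on the gene's own strand, CEBPA at chr19:33302485-33302784 (minus), CEBPB at chr20:50190580-50190879 (plus), FOXA3 at chr19:45864076-45864375 (plus) and FOXA1 at chr14:37595200-37595499 (minus).
CEBPA: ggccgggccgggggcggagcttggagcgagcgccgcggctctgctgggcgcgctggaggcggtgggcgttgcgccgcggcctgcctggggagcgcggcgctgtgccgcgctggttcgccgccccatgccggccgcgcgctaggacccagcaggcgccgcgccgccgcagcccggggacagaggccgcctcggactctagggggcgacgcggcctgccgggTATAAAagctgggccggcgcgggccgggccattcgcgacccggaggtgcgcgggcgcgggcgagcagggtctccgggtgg
CEBPB: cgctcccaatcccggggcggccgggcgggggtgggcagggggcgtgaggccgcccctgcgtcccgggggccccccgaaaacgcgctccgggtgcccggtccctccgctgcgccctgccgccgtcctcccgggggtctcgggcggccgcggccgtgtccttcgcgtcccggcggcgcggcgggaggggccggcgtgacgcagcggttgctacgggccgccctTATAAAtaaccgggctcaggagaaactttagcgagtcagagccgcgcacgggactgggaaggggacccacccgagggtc
FOXA3: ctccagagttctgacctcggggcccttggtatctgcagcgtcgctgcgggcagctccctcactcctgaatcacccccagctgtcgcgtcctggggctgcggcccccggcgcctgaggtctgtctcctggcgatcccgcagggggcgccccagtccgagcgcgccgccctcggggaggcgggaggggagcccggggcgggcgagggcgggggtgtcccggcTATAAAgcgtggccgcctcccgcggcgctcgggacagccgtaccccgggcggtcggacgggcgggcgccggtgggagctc
FOXA1: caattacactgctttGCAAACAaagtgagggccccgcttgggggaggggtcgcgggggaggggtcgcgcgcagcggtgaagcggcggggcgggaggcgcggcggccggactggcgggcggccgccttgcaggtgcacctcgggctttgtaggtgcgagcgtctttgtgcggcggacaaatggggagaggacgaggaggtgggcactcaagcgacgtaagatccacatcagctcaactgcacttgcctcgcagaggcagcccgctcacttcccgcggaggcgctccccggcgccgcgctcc

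On either strand, TATAAA lay from 30 to 25 bases before the start in CEBPA and FOXA3 and from 29 to 24 bases before it in CEBPB, and 3 of the 6 windows held it, against 11.5% of 35116 promoter windows of the same length. The GC box GGGCGG lay in 6 of 6 windows and in 45.0% of all, but the 6 windows had a GC content of 69.3% to 80.7%, against a median of 58.7% over all promoters. CCAAT, held by 34.6% of all windows, was found in CEBPB, where both windows hold the same site within their shared bases, and in ONECUT1. The AP-1 site TGANTCA was found in FOXA3 alone, against 7.71% of all windows, and TGTTTNC in FOXA1 alone, against 18.0%. The telomere repeat TTAGGG, held by 9.05% of all windows, and a loose C/EBP site, TTNNGNAA, held by 36.8%, were in 0 of the 6. None of the TATAAA matches overlapped a match to another of these motifs. These are matches of letters within short windows, and no binding was measured.

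The 3 libraries were first described as a whole. Summed over genes, FPKM reached 535516 with HKR3, 579410 in the library labelled siTERT and 596536 in the control. The estimated depths, from the FPKM worth of 1 fragment in weakly expressed genes, were 1.13e+07, 1.14e+07 and 1.02e+07 fragments in that order. ZBTB48 was at 2842 FPKM in the HKR3 library, against 4.91 FPKM in the control. TERT was at 5.37 FPKM in the library labelled siTERT, against 4.69 FPKM in the control. TERT was thus not lower in that library, so directions given for it refer to its label only. Of the hepatocyte markers 8 of 8 were measured, with summed levels of 9477, 13226 and 13718 FPKM in the HKR3 library, the library labelled siTERT and the control. In the HKR3 library 7 of these 8 lay below the control and FGB above it. Of 5 endothelial markers, PECAM1 had no entry under that symbol, and the other 4, CDH5, VWF, KDR and TEK, were listed at 0 in every library. Of 6 stromal markers, 0 reached a mean of 1 FPKM, and their summed level was between 0.133 and 0.238 FPKM. Of 7 immune markers, PTPRC, CD3E and NKG7 were listed at 0 in every library, while LYZ, CD14 and CD68 were measured, and the list summed to 243, 441 and 431 FPKM in the same order. The part of these marker differences in the results below was not tested. The bile duct list had 3 of 6 members measured, EPCAM, SOX9 and KRT19, with summed levels of 112, 129 and 127 FPKM in the same order, and KRT7 was listed at 0. Most of that sum was EPCAM, at 60.8, 70.6 and 71.7 FPKM, and SOX9, at 47.6, 54.2 and 53.3 FPKM. KRT19 was at 3.71, 3.69 and 1.78 FPKM, higher in both treated libraries than in the control. In bulk RNA, fewer cells that express a gene and less RNA of it per cell cannot be told apart.

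Since each group had 1 library, no replicate error was available for any difference. Differences below are in log2(FPKM + 1), and 2-fold on that scale was used as a size rule in place of a test. Intervals are 95% exact binomial intervals for ratios of FPKM and exact Poisson intervals for levels, both on estimated fragments, and they cover counting error only.

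All 8 factors were expressed in all 3 libraries, over a wide range of levels. CEBPA was the most abundant, at 226 FPKM in the HKR3 library, 336 FPKM in the library labelled siTERT and 358 FPKM in the control, which placed it in the top 3.08%, 2.32% and 2.23% of tested genes. ONECUT1 was the least abundant, at 9.65, 6.65 and 6.03 FPKM in the same order. The highest level was 23.4 times the lowest in the HKR3 library, 50.5 times in the library labelled siTERT and 59.5 times in the control, so the factors lay closest together with HKR3. Their median level was 54.7, 44.3 and 35.5 FPKM, against 13.5, 12.8 and 12.7 FPKM for all tested genes.

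The order of levels differed between libraries. In the HKR3 library it ran CEBPA, CEBPD, CEBPB, FOXA2, FOXA1, FOXA3, PROX1 and ONECUT1, with overlapping counting intervals for CEBPB and FOXA2 and for FOXA1 and FOXA3. In the library labelled siTERT it ran CEBPA, CEBPD, CEBPB, FOXA1, FOXA3, FOXA2, PROX1 and ONECUT1. There the intervals of CEBPD and CEBPB, of CEBPB and FOXA1, and of FOXA3 and FOXA2 overlapped. In the control the order was CEBPA, CEBPB, FOXA1, CEBPD, FOXA3, FOXA2, PROX1 and ONECUT1. The control intervals of CEBPB and FOXA1, of FOXA3 and FOXA2, and of PROX1 and ONECUT1 overlapped. CEBPD thus stood directly below CEBPA in the HKR3 library, and below CEBPB and FOXA1 as well in the control.

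**Figure D1:**
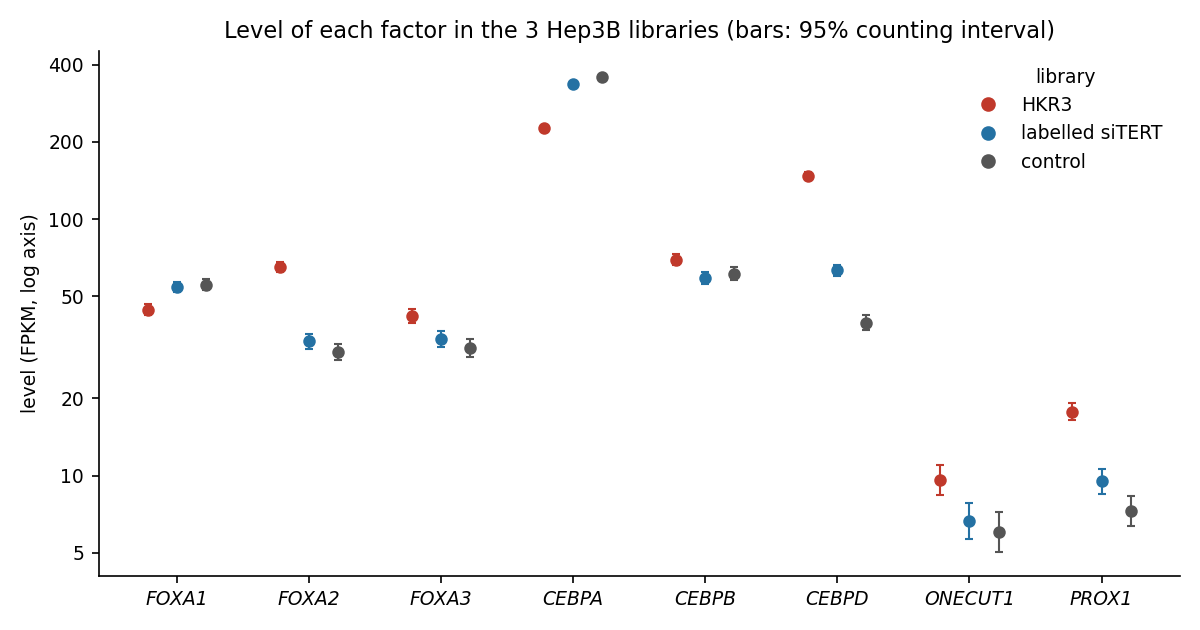
Level of each factor in FPKM on a log axis, with the HKR3 library, the library labelled siTERT and the control from left to right for each gene and 95% Poisson counting intervals as bars. CEBPD stood at 147, 63.1 and 39.5 FPKM, the widest spread of the 8 on this log axis, while CEBPB stood between 59.0 and 69.4 FPKM.

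The first comparison asked how HKR3 overexpression differed from the control. Of the 8 factors, 3 were at least 2-fold higher, CEBPD, PROX1 and FOXA2, and 0 were at least 2-fold lower. The background over all 10974 genes was 5.52% higher and 2.52% lower by this rule, or 8.05% in either direction. The median difference was 0.50 over the 8 factors and -0.02 over all genes. The remaining 5 factors lay inside 2-fold on both sides of the control, FOXA3, ONECUT1 and CEBPB above it and CEBPA and FOXA1 below it. Scaling every library to the same FPKM sum raised the median of all genes by 0.14 and turned the split of calls over all genes to 860 higher and 167 lower, or 83.7% higher, against 606 and 277, or 68.6%, as deposited. It left the same 3 factors at least 2-fold higher and changed the sign of none of the 8 in this comparison. With a pseudocount of 5 FPKM only CEBPD stayed past 2-fold, of these 8.

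Among the C/EBP genes, CEBPD differed most. CEBPD was at 147 FPKM in the HKR3 library, against 39.5 FPKM in the control, a ratio of 3.72 with a counting interval from 3.46 to 4.01. Its difference of 1.87 exceeded that of all but 105 tested genes, or 0.957% of them. C/EBP delta is the member usually low in resting hepatocytes and induced by interleukin-6 type cytokines.

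CEBPA went the other way. CEBPA was at 226 FPKM in the HKR3 library, against 358 FPKM in the control, a ratio of 0.631 with an interval from 0.611 to 0.651. The difference of -0.66 was lower than that of 90.2% of tested genes, yet it did not reach 2-fold. CEBPB was at 69.4 FPKM in the HKR3 library, against 61.3 FPKM in the control, a ratio of 1.13 from 1.05 to 1.22. CEBPB therefore lay above the control by more than counting error and by little in size.

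In the family sum these differences were opposed. CEBPA, CEBPB and CEBPD together were at 443 FPKM in the HKR3 library, 458 FPKM in the library labelled siTERT and 459 FPKM in the control. At the same FPKM sum, in transcripts per 1e+06, they were at 826, 790.4 and 770.0, so the sign of the small difference between HKR3 and control depends on the scaling. CEBPA made up 51.1% of the sum with HKR3, 73.4% in the library labelled siTERT and 78.0% in the control. CEBPD made up 33.2%, 13.8% and 8.60%, and CEBPB 15.7%, 12.9% and 13.4%. The ratio of CEBPD to CEBPA was 0.650 in the HKR3 library and 0.110 in the control, and that of CEBPB to CEBPA 0.307 and 0.171. Ratios within a library are not touched by scaling between libraries.

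The FOXA genes also changed places. FOXA2, the member expressed earliest in the endoderm, was at 64.98 FPKM in the HKR3 library, against 30.4 FPKM in the control. The ratio was 2.14 with an interval from 1.96 to 2.33, so the counting interval spanned 2-fold, and 4.53% of tested genes had a larger difference than its 1.07. FOXA3, which rises late in liver development, was at 42.0 FPKM and 31.5 FPKM, a ratio of 1.33 from 1.21 to 1.48. FOXA1 was at 44.4 FPKM in the HKR3 library, against 55.5 FPKM in the control, a ratio of 0.799 from 0.744 to 0.858. FOXA1 alone of the family lay below the control.

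Summed, the FOXA genes were at 151 FPKM in the HKR3 library, 122 FPKM in the library labelled siTERT and 117 FPKM in the control. FOXA2 took 42.9% of the sum with HKR3, against 27.4% in the library labelled siTERT and 25.9% in the control. FOXA1 took 29.3%, 44.7% and 47.3%, while FOXA3 kept a similar share at 27.7%, 28.0% and 26.8%. The leading FOXA transcript was thus FOXA2 in the HKR3 library and FOXA1 in the other 2 libraries. FOXA2 over FOXA1 was 1.46 in the HKR3 library and 0.547 in the control.

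**Figure D2:**
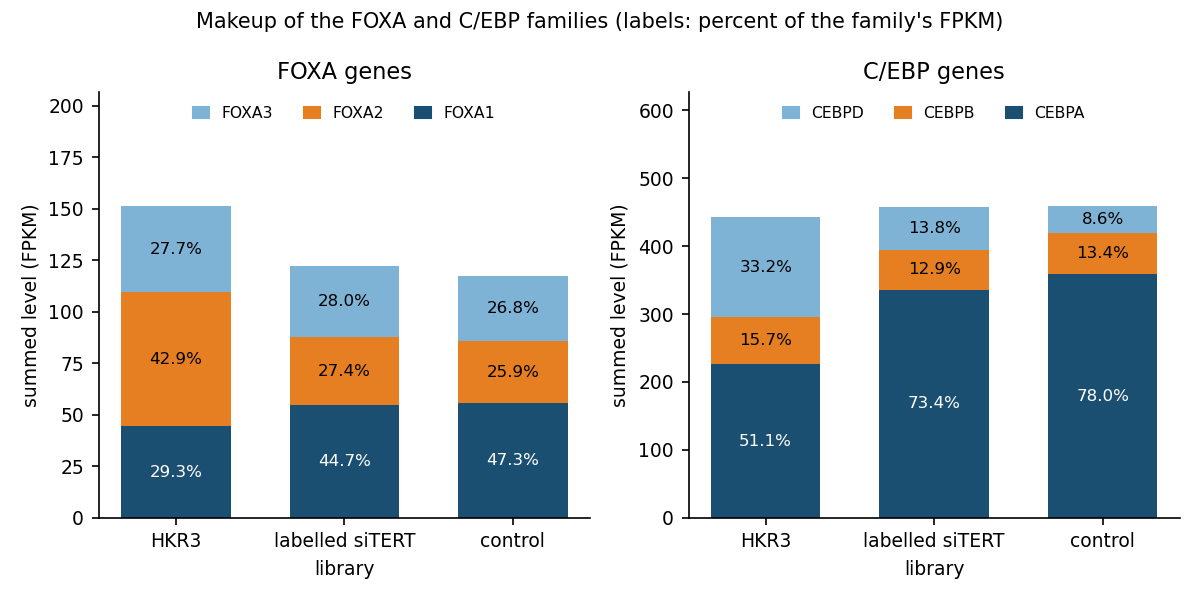
Summed FPKM of the FOXA genes (left) and of the C/EBP genes (right) in the HKR3 library, the library labelled siTERT and the control, stacked by gene with each gene's percent of the sum. The C/EBP bars are of similar height, 443, 458 and 459 FPKM, while the share of CEBPD is 33.2%, 13.8% and 8.6%.

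The homeodomain factors were both higher in the HKR3 library. PROX1 was at 17.8 FPKM there, against 7.29 FPKM in the control, a ratio of 2.44 with an interval from 2.09 to 2.85. Its difference was 1.18, exceeded by 3.58% of tested genes. ONECUT1 was at 9.65 FPKM and 6.03 FPKM, a ratio of 1.60 from 1.28 to 1.996. On 228 and 129 estimated fragments, ONECUT1 had the widest interval of the 8 factors relative to its ratio. PROX1 and ONECUT1 thus lay above the control beyond counting error, at the lowest levels of the set.

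The second comparison set the library labelled siTERT against the control. None of the 8 factors differed by 2-fold, with 0 higher and 0 lower, where the background over all tested genes was 0.282% higher and 0.2% lower, or 0.483% in either direction. The median difference was 0.12 over the 8 factors and -0.01 over all genes. CEBPD was at 63.1 FPKM in the library labelled siTERT, against 39.5 FPKM in the control, a ratio of 1.60 with an interval from 1.47 to 1.74. Its difference of 0.66 was exceeded by 1.13% of tested genes. PROX1 was at 9.51 FPKM in the library labelled siTERT, against 7.29 FPKM in the control, a ratio of 1.304 from 1.10 to 1.55.

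The other 6 factors lay close to the control in the library labelled siTERT. CEBPA was at 336 FPKM there and 358 FPKM in the control, a ratio of 0.937 from 0.911 to 0.964. For FOXA1, FOXA2, FOXA3, CEBPB and ONECUT1 the counting interval of the ratio included 1. FOXA2 was at 33.4 FPKM, against 30.4 FPKM in the control, and FOXA3 at 34.2 FPKM, against 31.5 FPKM. FOXA1 was at 54.5 FPKM, against 55.5 FPKM in the control, a difference of -0.03 that turned to 0.02 when every library was scaled to the same sum. Both treated libraries were set against the same control library, so an error in the control would move both sets of differences together. Set directly against the library labelled siTERT, the HKR3 library gave ratios of 2.33 for CEBPD, from 2.197 to 2.48, of 1.87 for PROX1, from 1.64 to 2.15, and of 1.95 for FOXA2, from 1.80 to 2.11. CEBPA gave a ratio of 0.673, from 0.652 to 0.694, in that comparison.

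**Figure D3:**
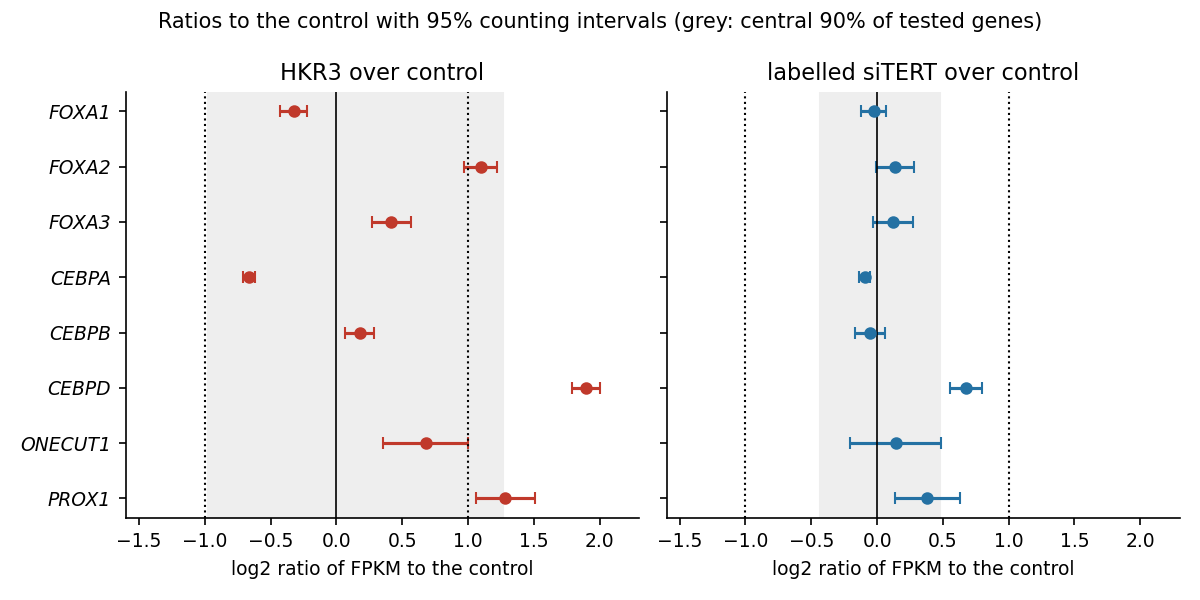
Log2 ratio of each factor's FPKM to the control, for the HKR3 library (left) and the library labelled siTERT (right), with 95% counting intervals, 2-fold lines (dotted) and the central 90% of tested genes (grey). On this scale without a pseudocount, CEBPD lies right of the grey band with HKR3 at a ratio of 3.72, PROX1 at its edge at 2.44 and FOXA2 inside it at 2.14 (in log2(FPKM + 1), FOXA2 at 1.07 lies just above the central 90%, which ends at 1.04), while in the library labelled siTERT CEBPD alone lies clearly outside it, at 1.60.

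By a rule of the smallest distance over both differences to the control, the 5 tested genes whose pattern over the 3 libraries was most like that of CEBPD were FAM13A, ACHE, HEY1, ZMYM5 and AHR. Their distances were between 0.016 and 0.14 on the log2 scale. FAM13A was at 26.7 FPKM in the HKR3 library, 11.0 FPKM in the library labelled siTERT and 6.51 FPKM in the control, and AHR, the aryl hydrocarbon receptor, at 51.4, 23.5 and 14.8 FPKM. ACHE was at 5.85, 1.89 and 0.878 FPKM in the same order, HEY1 at 6.00, 2.203 and 0.967 FPKM, and ZMYM5 at 18.5, 6.64 and 4.23 FPKM. In plain ratios of HKR3 to control, ACHE at 6.66 and HEY1 at 6.20 were not close to CEBPD at 3.72, so the likeness of these weakly expressed genes depends on the pseudocount. With 3 libraries, such likeness rests on a pair of values per gene.

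The C/EBP genes share sequence features that the choice of genes did not use. CEBPA, CEBPB and CEBPD have a single exon each, and their transcripts have a GC content of 65.9%, 66.2% and 70.0%, above that of 97.0%, 97.3% and 99.5% of tested genes. Of the other factors, FOXA3 had 60.8%, FOXA2 59.2%, ONECUT1 58.1%, FOXA1 51.3% and PROX1 47.9%, against a median of 49.8% over all tested genes. In the HKR3 library, the genes in the top decile of GC content had a median difference of -0.25, and those in the lowest decile one of 0.18. Centred on the median of their own decile, CEBPD was at 2.12, FOXA2 at 1.253, CEBPB at 0.43 and CEBPA at -0.41. CEBPA and CEBPD, in the same GC decile, thus lay on opposite sides of it. The part of GC content in these differences was not tested.

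**Figure D4:**
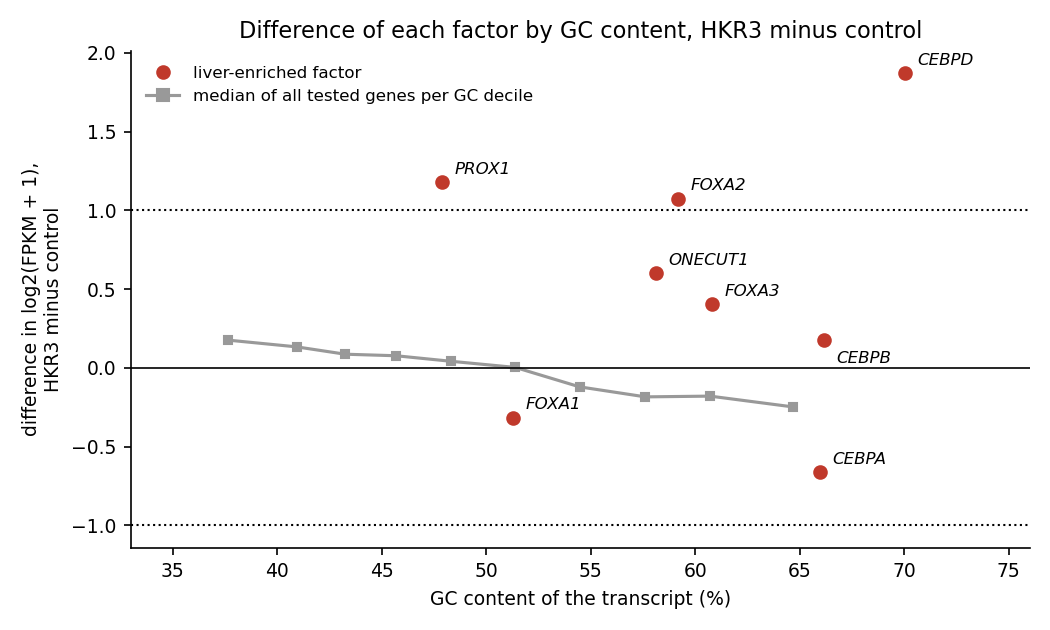
Difference in log2(FPKM + 1), HKR3 minus control, against the GC content of the transcript in percent, for the 8 factors (red) and for the median of all tested genes in each GC decile (grey). The grey line falls to -0.25 in the top decile, where CEBPD lies at 1.87, CEBPB at 0.18 and CEBPA at -0.66.

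Read on the transcript strand, little of the factors' sequence is shared with other genes. Reverse complements were not compared, so overlap with antisense exons does not enter these shares. In units of 31 bases, 4.08% of FOXA2 and 1.60% of FOXA1 lay in another gene, and for the other 6 the share was at most 1.09%. Exons of FOXA1 overlap those of TTC6, which was at 0.767 FPKM in the HKR3 library, 0.788 FPKM in the library labelled siTERT and 0.595 FPKM in the control. Exons of CEBPB overlap CEBPB-AS1, those of PROX1 overlap PROX1-AS1, those of CEBPA overlap the antisense genes AC008738.3 and AC008738.5, and those of FOXA2 overlap AL121722.1, which GENCODE gives as a protein-coding gene on the same strand. None of these was analysed here. The library kit marks strand, but no source states whether counting used it, so reads of overlapping genes may be mixed for these members.

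Genes that work with these factors were examined as lists. As background for each list, 5.52% of all tested genes were at least 2-fold higher with HKR3 and 2.52% lower. At the same FPKM sum, 7.84% were higher and 9.36% different in either direction. In the library labelled siTERT, 0.282% were higher and 0.2% lower as deposited. Of 35 other liver transcription factors, 32 were measured, of which 3 passed 2-fold upwards with HKR3 and 0 downwards, with a median difference of 0.32. At the same FPKM sum 8 passed upwards and 0 downwards. NR5A2, a nuclear receptor for which PROX1 acts as a corepressor, was at 20.2 FPKM in the HKR3 library, against 6.07 FPKM in the control. TCF7L2, the transcription factor of Wnt signalling, was at 23.7 FPKM, against 9.18 FPKM in the control, and ATF5, a basic leucine zipper factor abundant in liver, at 44.7 FPKM, against 21.2 FPKM. Differences in this list ran from -0.93 to 1.59 and lay on both sides of the control. HNF4A, a central factor of the hepatocyte network, was named after its value was seen. HNF4A was at 55.4 FPKM in the HKR3 library, against 72.1 FPKM in the control.

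Basic leucine zipper genes made up the list with the highest median. Of 13 measured genes among the other C/EBP genes and their possible dimer partners, 7 were at least 2-fold higher in the HKR3 library. By the same rule 0 were lower, against 5.52% higher and 2.52% lower over all tested genes, and the median difference was 1.39. JUN, an AP-1 subunit, was at 146 FPKM there, against 8.49 FPKM in the control. ATF3, a stress-induced repressor, was at 38.4 FPKM, against 2.25 FPKM in the control. DDIT3, or CHOP, which forms dimers with C/EBP proteins that fail to bind classical C/EBP sites, was at 47.1 FPKM, against 11.5 FPKM in the control. FOS, JUNB and FOSL1 had differences of 2.34, 1.78 and 1.47. This list was chosen with earlier results of these data known, so its direction is no independent evidence.

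Of 37 other forkhead, ONECUT and PROX paralogues, 20 were measured and 8 were listed at 0 in every library, among them PROX2. Of those measured, 3 were at least 2-fold higher in the HKR3 library and 0 lower, against 5.52% and 2.52% of all tested genes. Their median was 0.32. FOXC1, a forkhead factor of mesodermal tissues, was at 5.72 FPKM, against 1.17 FPKM in the control, FOXN2 at 16.8 FPKM, against 5.99 FPKM, and FOXD1 at 2.18 FPKM, against 0.574 FPKM. At the same sum 5 were higher, the other 2 being ONECUT2 and FOXF2, both named after their values were seen. ONECUT2, the paralogue of ONECUT1, was at 6.81 FPKM, against 3.11 FPKM in the control. FOXF2 was at 1.80 FPKM, against 0.446 FPKM in the control, a plain ratio of 4.03 that the pseudocount reduces to a difference of 0.95.

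Hepatocyte genes listed for sites of FOXA, HNF or C/EBP factors were lower in median. Those sites were not checked here, and no binding was measured. Of 46 such genes 26 were measured, of which 3 passed 2-fold downwards with HKR3 and 0 upwards, against 2.52% and 5.52% of all tested genes. Of the 26, 5 lay above 0 and 21 below, with a median of -0.50, or -0.35 with libraries scaled to the same sum. ASGR1, a subunit of the asialoglycoprotein receptor, was at 34.1 FPKM in the HKR3 library, against 77.0 FPKM in the control. APOA1, the chief HDL apolipoprotein, was at 713 FPKM, against 1461 FPKM in the control, and F7, coagulation factor VII, at 2.09 FPKM, against 5.25 FPKM. APOA1 and F7 were no longer past 2-fold at the same sum, which left 1 gene lower. All 8 hepatocyte markers are members of this list, so the lower sums of those markers and the lower median here rest partly on the same genes. In the library labelled siTERT this list had a median of -0.01 with no member past 2-fold, 12 above 0 and 14 below.

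Acute-phase genes, among them classical targets of C/EBP beta and C/EBP delta, lay on both sides of the control in the HKR3 library, 5 above and 9 below. Of 14 measured genes 0 were past 2-fold in either direction, the median was -0.21, and differences ran from -0.94 to 0.74. The genes named next were chosen after their values were seen. SAA1, an inducible serum amyloid A, had the highest difference, at 19.9 FPKM, against 11.5 FPKM in the control, and SAA2 had a difference of 0.39. HP had the lowest difference, -0.94, at 26.2 FPKM, against 51.1 FPKM in the control. ORM1, the most abundant of the 14 in the control at 227 FPKM, was at 147 FPKM in the HKR3 library, and ORM2 had a difference of -0.50. The fibrinogen genes FGA, FGB and FGG, also acute-phase genes but counted among the hepatocyte genes, had differences of 0.48, 0.59 and 0.41, all above the control and inside 2-fold. In the library labelled siTERT their median was 0.08, and SAA4, a constitutive serum amyloid A, was at 60.5 FPKM, against 26.8 FPKM in the control, the single member past 2-fold. In GENCODE, SAA4 overlaps the read-through gene SAA2-SAA4, so its level is uncertain.

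Signalling genes upstream of C/EBP beta and delta had 13 of 16 members measured and 0 past 2-fold in either library, with a median of 0.23 for HKR3 and of 0.02 for the library labelled siTERT. The most abundant in the control, TNFRSF1A, a receptor of tumour necrosis factor, was lowest in difference and at 38.5 FPKM in the HKR3 library, 78.8 FPKM in the library labelled siTERT and 59.0 FPKM in the control. Of the 13, 9 lay above the control in the HKR3 library. The 4 with the highest differences, named after their values were seen, were IL6ST at 0.58, JAK1 at 0.62, STAT3 at 0.51 and CREB1 at 0.63. The 4 below the control were TNFRSF1A, MAPK3 at -0.52, RPS6KA1 at -0.50 and IL1R1 at -0.19. In the library labelled siTERT 7 of the 13 lay above the control and 6 below. IL6ST was at 0.55 there, close to its value with HKR3, while JAK1 was at -0.05, STAT3 at 0.26 and CREB1 at 0.05. IL6, the cytokine interleukin-6, was under the filter, at 0.953 FPKM in the HKR3 library and listed at 0 in the other 2 libraries. SOCS3, of the same list and also under the filter, was at 0.979 FPKM in the HKR3 library, against 0.995 FPKM in the control.

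Among PROX1 partners and lymphatic genes, 6 of 10 were measured, NR5A2 passed 2-fold upwards and SOX18 downwards with HKR3, and the median was -0.21. NR2F2 passed upwards as well at the same sum. SOX18, an inducer of PROX1 in lymphatic endothelium, was at 2.39 FPKM in the HKR3 library, against 7.78 FPKM in the control, while PROX1 was higher. The lymphatic genes FLT4 and PDPN were listed at 0 in every library, and LYVE1 in all but the HKR3 library, where it was at 0.077 FPKM. These 7 lists overlap in CREB1, HAMP, NR2F2 and NR5A2, which count in both lists that hold them, and SOX9 stands among both the other liver factors and the bile duct markers.

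**Figure D5:**
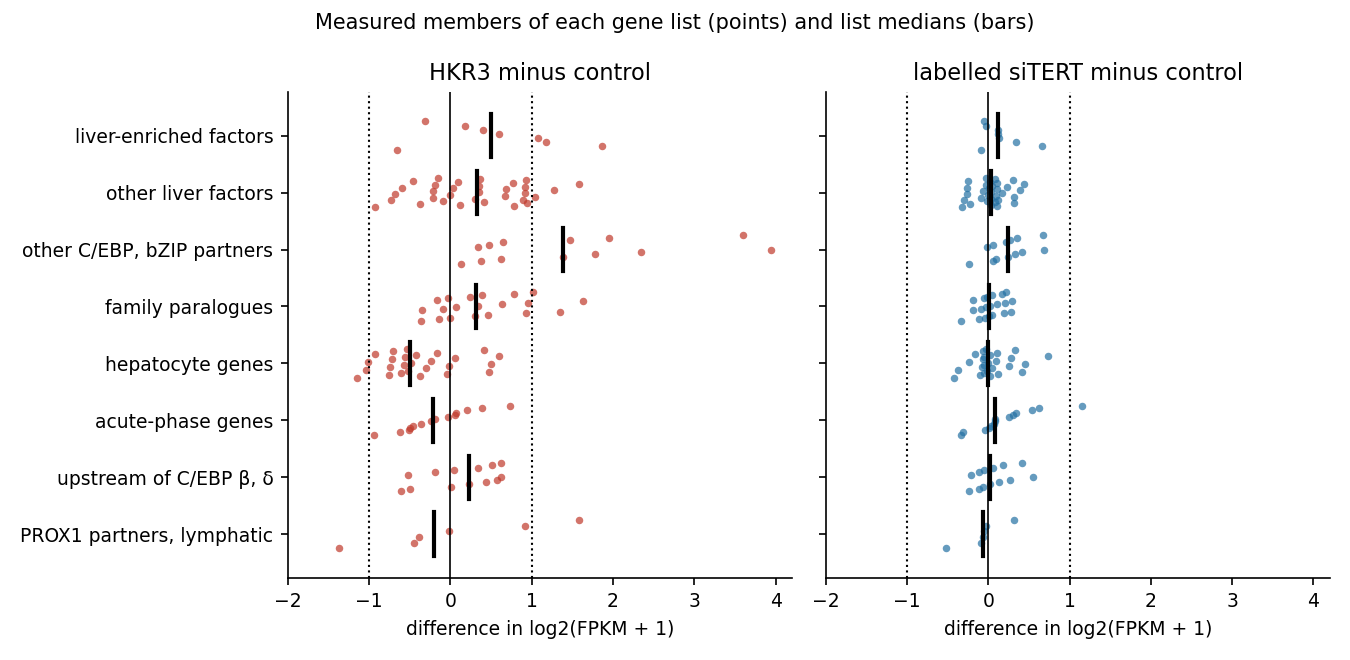
Difference in log2(FPKM + 1) to the control of every measured member of each gene list (points) with the list median (bars), for the HKR3 library (left) and the library labelled siTERT (right), with dotted lines at 2-fold. In the HKR3 library the medians are 0.50 for the liver-enriched factors, 1.39 for the other C/EBP and partner genes and -0.50 for the hepatocyte genes, while in the library labelled siTERT those of all lists lie between -0.06 and 0.24.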

How the data were processed

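RNA sequencing of 3 Hep3B libraries, 1 per group, was analysed from a table in which the authors deposited FPKM per gene and library. TRIzol extraction and the Illumina TruSeq Stranded mRNA kit are named per the labels' protocols. The tools named in the submitters' processing notes are STAR 2.5.0, Cufflinks and, as the last, Cuffdiff 2.2.1, and the build is hg19. Settings, filters, use of strand and scaling between libraries were not stated. FPKM falls for all other genes when a few take more fragments, and a length set by the wrong isoform shifts a gene's level in every library alike.

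Of 19869 entries, 19310 matched a gene symbol, 10 that shared a symbol were summed and 1 short noncoding RNA was left out. Differences to the control were taken in log2(FPKM + 1) over the 10974 genes whose mean reached 1 FPKM, which understates changes of weakly expressed genes. With 1 library per group there was no test, SD or p-value. Depth was estimated from single-transcript genes of at least 1000 bases, where 67 of 78, 74 of 90 and 69 of 80 low values in the HKR3 library, the library labelled siTERT and the control lay within 25% of 1 fragment. Fragments of a member used its shortest coding transcript of at least 1000 bases in GENCODE 29, and both steps ignore any scaling by Cuffdiff. Named genes were all members, ZBTB48 and TERT, list members past 2-fold (at most 6 per list, by size), the most abundant where none was, and the 5 nearest to CEBPD. Genes named outside this rule (HNF4A, ONECUT2, FOXF2, PROX2, FLT4, PDPN, LYVE1, NR2F2, single cell type markers, and acute-phase, fibrinogen and signalling genes) were chosen after their values were seen. Some genes of the lists are not reported here. The members and lists were chosen with earlier results of these data known. Of 8 other settings tried, 2 (centring by GC content and a pseudocount of 0.001 FPKM) were chosen after seeing the data. The calculation was tested on simulated data. Python 3.11.15, pandas 2.3.3, NumPy 2.4.6, SciPy 1.17.1 and matplotlib 3.10.9 were used.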

Additional observations from a re-analysis of the deposited data

How the results depend on the processing

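Counts of factors past 2-fold in the HKR3 library were 3 as reported and under every alternative but a pseudocount of 5 FPKM, which left 1, CEBPD, since it shrinks differences by construction. The median over the 8 factors, 0.50, was 0.65 with libraries scaled to the same sum, where that of all tested genes went from -0.02 to 0.12. It was 0.39 with a pseudocount of 5 FPKM, and 0.69 when centred within deciles of GC content, an alternative chosen after seeing the data. In the library labelled siTERT, FOXA1 turned from -0.03 to 0.01517 with libraries scaled to the same sum, a scaling that raised the median of all tested genes there by 0.04. No factor past 2-fold appeared in that library under any of the 8 alternatives. Over these, the difference in the HKR3 library ran from 1.77 to 2.12 for CEBPD, 0.89 to 1.33 for PROX1, 0.98 to 1.253 for FOXA2, 0.41 to 0.79 for ONECUT1, 0.37 to 0.59 for FOXA3, 0.17 to 0.43 for CEBPB, -0.32 to -0.16 for FOXA1 and -0.66 to -0.41 for CEBPA, with no change of sign. Over all tested genes, the number at least 2-fold higher in the HKR3 library was 606 as reported, 874 with a pseudocount of 0.1 FPKM, 910 with 0.001 FPKM and 238 with 5 FPKM, and that at least 2-fold lower was 277, 488, 520 and 93. In the library labelled siTERT they were 31, 103, 114 and 10 higher, and 22, 57, 66 and 3 lower. A minimum mean of 5 FPKM gave 419 higher and 221 lower with HKR3, and 17 and 5 in the library labelled siTERT. No replicate could be left out. No paired analysis was possible because each group holds 1 library. Depth limits ONECUT1 most, at 228, 159 and 129 estimated fragments in the HKR3 library, the library labelled siTERT and the control.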
